A study of Homo sapiens with 4 samples.

Results

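The 10 genes described here are the AP-1 subunits FOS, FOSB, FOSL1, FOSL2, JUN, JUNB and JUND and the immediate early genes EGR1, ATF3 and IER3. They were taken by symbol from a table of 55765 gene symbols, all 10 were found, and all 10 were among the 18900 genes with enough reads to test. SK-N-BE(2)C is a neuroblastoma line in long-standing culture that carries extra copies of MYCN. One group received 10 µM ATRA (all-trans retinoic acid, a vitamin A derivative that makes neuroblastoma cells differentiate) for 144 h and the other received its solvent, ethanol, for the same 144 h. Both groups came from this 1 line in the same serum-containing medium, with 2 libraries each. The libraries are called 1 and 2 after their titles, where the first carries no number. Nothing in the labels says that they were separate cultures, so each p-value speaks for the scatter of these libraries alone, technical scatter included.

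AP-1 is a dimer of leucine zipper proteins that binds DNA and drives genes of growth, invasion, stress and differentiation. Jun proteins can pair with each other, whereas Fos proteins need a Jun or related partner. Many of these genes are immediate early genes, which serum, growth factors or stress switch on within minutes through ERK and other kinases without new protein synthesis. The transcripts are short-lived, so a sample taken days after a treatment shows a standing level and not the early burst. Retinoic acid receptors are known to hold back AP-1 in several cell types.

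Promoter windows of 250 bases before the transcription start were available for 8 of the 10 members in the RefSeq table of GRCh38.p14. FOSL1 and IER3 had no entry. Elements known from such promoters were searched on both strands, along with a retinoid element. The CArG box, which serum response factor binds, was present in the EGR1 window 2 times and in no other member's window, while 1.16% of all 35116 windows held it. The 6 letters TGACGT, the core of the cyclic AMP response element, were in the windows of FOS, FOSB, FOSL2, JUND and EGR1, and in 7.1% of all windows. The 8 letters TGACNTCA, which include the full element and the Jun-type variant, were in the windows of JUN, JUND and the upstream start of ATF3, and in 6.87% of all windows. In JUND the 8-letter match contains a TGACGT match. The AP-1 site TGANTCA was in none of these windows and in 6.57% of all windows, and the EGR site GCGNGGGCG was in that of EGR1 alone and in 8.41%. The retinoic acid response element in its exact form, a repeat of AGGTCA after a spacer of 5 bases, was in no member's window and in 0.00285% of all. Such matches describe letters and show no binding. Looser forms and sites beyond 250 bases were not searched, so a missing match does not mean that a gene lacks the element.

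The windows of EGR1, JUND, FOS and JUN are shown because they hold the different kinds of element. Capitals mark every match of the searched elements, and each sequence runs 5′ to 3′ on the strand of its gene up to the base before the start. EGR1 lies at chr5:138465229-138465478 on the plus strand, JUND at chr19:18281623-18281872 on the minus strand, FOS at chr14:75278578-75278827 on the plus strand and JUN at chr1:58784048-58784297 on the minus strand, all in GRCh38.p14 and all upstream of the first exon.
EGR1: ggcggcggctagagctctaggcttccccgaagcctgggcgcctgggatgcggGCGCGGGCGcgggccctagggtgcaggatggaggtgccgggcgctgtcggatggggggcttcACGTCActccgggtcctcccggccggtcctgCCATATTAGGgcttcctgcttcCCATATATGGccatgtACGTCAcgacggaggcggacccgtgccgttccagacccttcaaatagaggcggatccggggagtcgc
JUND: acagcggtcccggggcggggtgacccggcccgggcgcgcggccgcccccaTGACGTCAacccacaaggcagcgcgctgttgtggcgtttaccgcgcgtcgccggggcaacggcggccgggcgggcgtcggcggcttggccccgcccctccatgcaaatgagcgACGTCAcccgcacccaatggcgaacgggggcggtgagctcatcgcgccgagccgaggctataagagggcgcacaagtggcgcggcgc
FOS: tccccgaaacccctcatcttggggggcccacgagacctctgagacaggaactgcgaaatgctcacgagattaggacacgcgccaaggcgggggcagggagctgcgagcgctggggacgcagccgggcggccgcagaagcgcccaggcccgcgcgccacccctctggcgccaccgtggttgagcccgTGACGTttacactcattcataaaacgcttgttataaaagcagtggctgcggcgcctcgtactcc
JUN: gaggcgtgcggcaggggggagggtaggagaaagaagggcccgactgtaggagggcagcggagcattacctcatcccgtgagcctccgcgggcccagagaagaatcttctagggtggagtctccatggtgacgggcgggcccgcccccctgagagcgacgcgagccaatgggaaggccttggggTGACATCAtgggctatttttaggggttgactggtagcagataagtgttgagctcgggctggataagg

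Totals ran from 12850462 to 19883465 reads per library. The libraries numbered 1 held 2.49% and 5.96% mitochondrial ribosomal RNA, against 0.130% and 0.0291% in those numbered 2, and their protein-coding share was lower (73.4% to 73.6%, against 84.2% to 84.4%). Differences between ATRA and ethanol are therefore also given within each number. All 12 adrenergic neuroblastoma markers had reads in every library, with a lowest level of 5.76 CPM, that of GATA3 in ATRA 1. Their summed level was 4342 and 3838 CPM with ATRA and 6013 and 5246 CPM with ethanol, of which MYCN alone made 2319 and 1778 CPM and 3739 and 2910 CPM. Of the 12, 7 were lower in both ATRA libraries, 2 (ELAVL4 and PHOX2A) were higher in both and 3 overlapped. Among all tested genes 21.7% were lower in both and 23.8% higher in both. GATA3, the 1 gene called, fell (5.76 and 7.30 CPM against 38.8 and 42.7 CPM, log2 -2.64 ± 0.30, edgeR quasi-likelihood adjusted p 0.0381). The share of all tested genes called lower was 0.153%. Of 17 markers of other cell types in the table, 3 to 5 were at 0 in each library, and CD68 had 0 reads in all of them. Their summed level was 142 and 300 CPM with ATRA and 191 and 447 CPM with ethanol, most of it from the matrix genes DCN and LUM except in ATRA 1. Without DCN and LUM it was 87.2 and 31.8 CPM with ATRA and 12.5 and 11.5 CPM with ethanol. The part of these differences in the results below was not tested.

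Among the 10 genes, IER3 stood furthest from its ethanol level, at 7.55 times the mean, and FOS, EGR1 and JUND were also higher in both ATRA libraries than in both ethanol libraries. In such bulk RNA, a change in the number of cells that express a gene and a change in RNA per cell cannot be told apart. None of the 10 passed the test over all genes: 0 were called higher and 0 lower at an adjusted p of 0.05, where 0.545% of all tested genes were called higher and 0.153% lower (edgeR quasi-likelihood, Benjamini-Hochberg). The smallest log2 fold change among called genes was 1.73 in absolute size, so differences as small as those of most members were not called for any gene. At an unadjusted p under 0.05 there was 1, IER3, against a background of 9.43% higher and 6.49% lower. DESeq2 called 1 member higher, again IER3, and 0 lower (background 4.03% and 2.15%), and limma-voom called 0 (background 0.228% higher). The 4 of 10 members whose ATRA libraries both lay above both ethanol libraries compare with 23.8% of all tested genes, and the 0 of 10 below with 21.7%. The median log2 fold change was 0.34 over the 10 members and 0.01 over all genes tested.

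**Figure D1:**
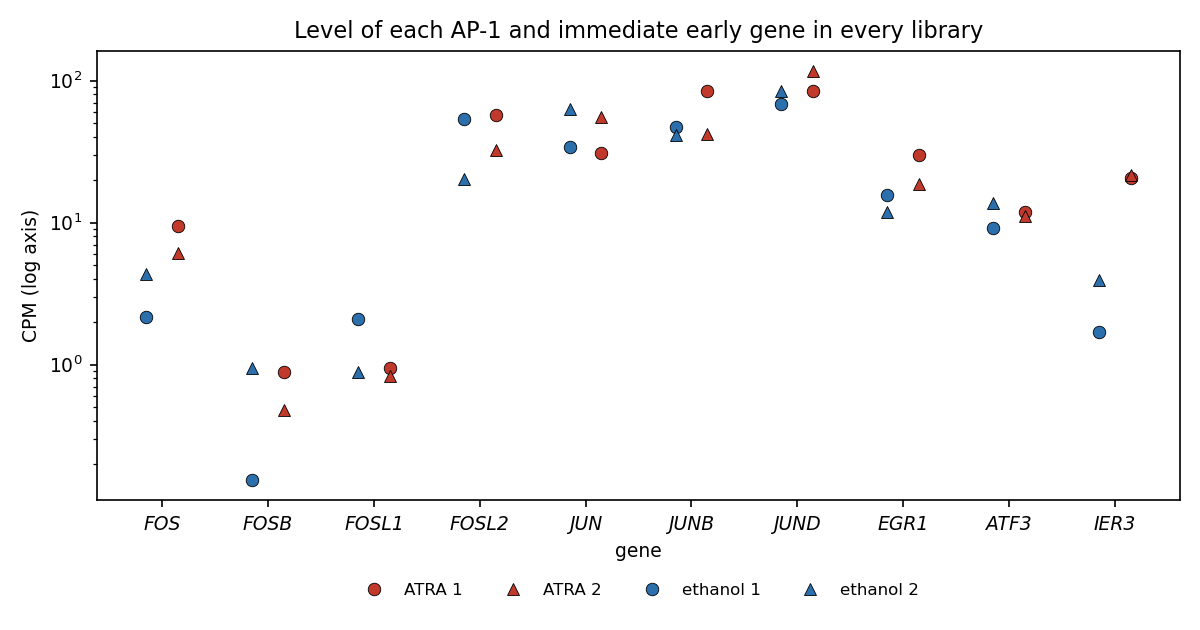
Level of each of the 10 genes in every library in CPM (log axis); red points are ATRA and blue points ethanol, circles are libraries numbered 1 and triangles libraries numbered 2. IER3 shows the widest gap between the groups, at 20.7 and 21.7 CPM with ATRA against 1.69 and 3.91 CPM with ethanol, while FOSL2 and JUN part by library number instead.

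Levels are CPM, read counts scaled to library sizes that TMM had adjusted, and where genes are compared with each other they are divided by the gene's exon length in kb. On that scale the order with ethanol was JUND (41.0 ± 6.18 CPM per kb, SD, n = 2), JUNB (24.3 ± 2.12), JUN (13.8 ± 5.80), FOSL2 (5.17 ± 3.29), EGR1 (4.38 ± 0.853), ATF3 (2.84 ± 0.807), IER3 (2.07 ± 1.16), FOS (1.01 ± 0.481), FOSL1 (0.787 ± 0.445) and FOSB (0.0986 ± 0.100). The libraries of neighbours overlapped for FOSL2 and EGR1, ATF3 and IER3, IER3 and FOS, and FOS and FOSL1. With ATRA the order of the same level was JUND (54.2 ± 11.98), JUNB (34.7 ± 16.6), IER3 (15.6 ± 0.520), JUN (12.2 ± 4.91), EGR1 (7.75 ± 2.498), FOSL2 (6.29 ± 2.52), ATF3 (2.86 ± 0.129), FOS (2.41 ± 0.710), FOSL1 (0.473 ± 0.0415) and FOSB (0.122 ± 0.0512). Here the libraries of JUND and JUNB, IER3 and JUN, JUN and EGR1, EGR1 and FOSL2, and ATF3 and FOS overlapped. IER3 thus stood at position 7 with ethanol and position 3 with ATRA, and the Jun genes lay above every Fos gene in both groups.

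The Jun family supplies a subunit of nearly every AP-1 dimer and was the more abundant family. Summed over its 3 genes it had 101 CPM per kb in both ATRA libraries and 72.2 and 86.1 CPM per kb in the ethanol libraries. JUND, the subunit that is least dependent on stimulation, had 85.2 and 117 CPM in ATRA 1 and 2 and 68.3 and 84.6 CPM in ethanol 1 and 2. The lower ATRA library lay just above the higher ethanol library. Its log2 fold change was 0.40 ± 0.28 (SE, edgeR quasi-likelihood adjusted p 0.580), with a 95% interval of -0.27 to 1.08, and it was 0.32 and 0.46 within numbers 1 and 2.

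JUNB, a Jun protein that often restrains growth, had 84.5 CPM in ATRA 1, against 41.8 CPM in ATRA 2 and 47.0 and 41.6 CPM in ethanol 1 and 2. The groups overlapped, and the high value belonged to 1 library. The log2 fold change was 0.51 ± 0.37 (edgeR quasi-likelihood adjusted p 0.608), it was 0.84 within number 1 and 0.01 within number 2, and it was -0.088 without ATRA 1. JUNB shares 259 exon bases with HOOK2 on the opposite strand, so its reads are uncertain unless strand was used in counting. HOOK2 had 22.4 and 13.8 CPM in ATRA 1 and 2 and 16.5 and 13.3 CPM in ethanol 1 and 2. Like JUNB, it was highest in ATRA 1. Whether HOOK2 reads entered the JUNB counts was not tested.

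JUN, the founding subunit and a target of JNK, had 31.0 and 55.5 CPM in ATRA 1 and 2 and 34.2 and 63.2 CPM in ethanol 1 and 2. It followed the library number and not the treatment. The level in the library numbered 2 was 1.79 times that in the library numbered 1 with ATRA and 1.85 times with ethanol, whereas the log2 difference between treatments was -0.14 and -0.19 within numbers. The fitted log2 fold change was -0.17 ± 0.42, with a 95% interval of -1.20 to 0.85 (edgeR quasi-likelihood adjusted p 0.918). The JUND share of Jun family reads was 42.5% and 54.5% in ATRA 1 and 2 and 45.7% and 44.7% in ethanol 1 and 2, and that of JUN was 15.4% and 25.9% against 22.9% and 33.4%. For both genes the ATRA libraries differed from each other by more than the group means did. Within each number the JUN share was lower with ATRA. The JUND share was lower with ATRA within number 1 and higher within number 2.

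Fos family transcripts came mostly from FOSL2, also called FRA2. It made up 83.7% (95% exact binomial interval 81.3% to 85.9%) and 81.2% (78.0% to 84.1%) of the family's reads in ATRA 1 and 2, and 92.4% (90.3% to 94.2%) and 76.6% (72.8% to 80.2%) in ethanol 1 and 2. These intervals cover counting error only, since the reads carry no molecular identifiers. Per kb of transcript, FOSL2 still made up 58.8% to 80.7% of the family in each library. The groups overlapped in both measures.

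**Figure D2:**
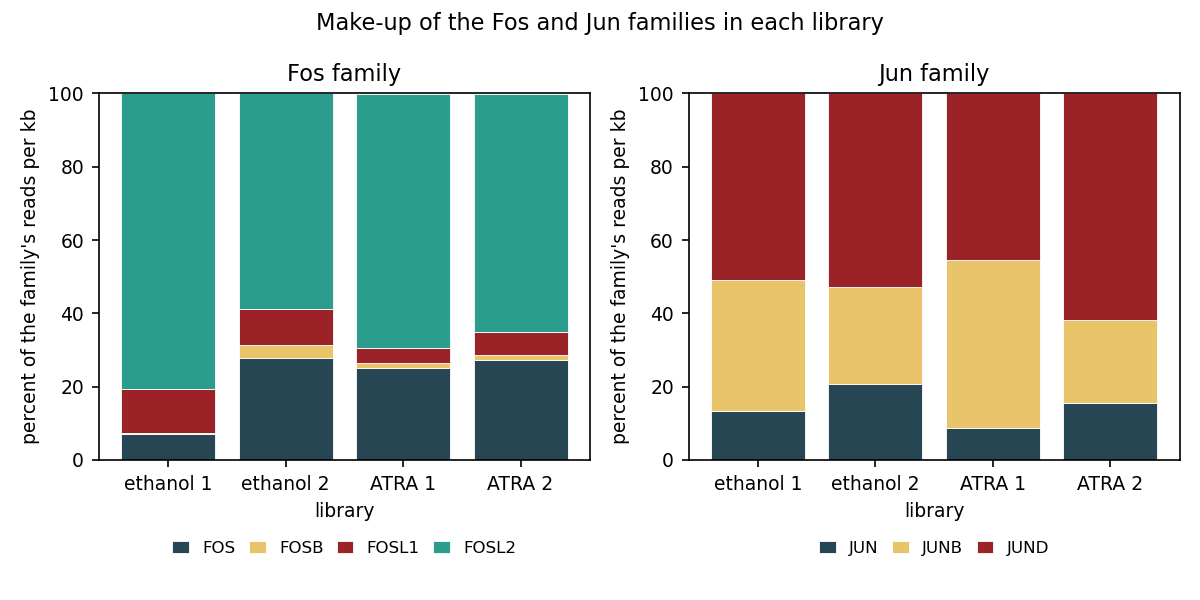
Make-up of the Fos family (left) and Jun family (right) in each library, as percent of the family's reads per kb of exon. FOSL2 fills 58.8% to 80.7% of the Fos bars and JUND 45.3% to 61.9% of the Jun bars, and the FOS share is lowest in ethanol 1, at 7.16%.

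FOSL2 itself had 57.8 and 32.3 CPM in ATRA 1 and 2 and 53.7 and 20.3 CPM in ethanol 1 and 2. It followed the library number in the direction opposite to JUN, with the library numbered 1 at 1.79 times the other with ATRA and 2.64 times with ethanol. The fitted log2 fold change was 0.29 ± 0.52 (edgeR quasi-likelihood adjusted p 0.879), and it was 0.11 and 0.67 within numbers. Leaving out ATRA 1 or ethanol 2 turned it to -0.18 or -0.24.

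FOS, the prototype immediate early gene, had 9.42 and 6.16 CPM in ATRA 1 and 2 (139 and 103 reads) and 2.16 and 4.36 CPM in ethanol 1 and 2 (28 and 88 reads). Both ATRA libraries lay above both ethanol libraries, and the gap was wide within number 1 and narrow within number 2. The log2 differences were 2.07 and 0.49 within numbers. The fitted log2 fold change was 1.25 ± 0.53, with a 95% interval of -0.06 to 2.55, and did not pass (edgeR quasi-likelihood adjusted p 0.335). It was 0.79 without ethanol 1 and 1.86 without ethanol 2. The FOS share of Fos family reads was 13.6% and 15.5% with ATRA and 3.71% and 16.4% with ethanol, so ethanol 1 was the lowest of the 4 libraries and ethanol 2 the highest.

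FOSB and FOSL1 were near the limit of detection. FOSB, an inducible Fos protein of neurons, had 13 and 8 reads in the ATRA libraries and 2 and 19 reads in the ethanol libraries, and the extremes were both ethanol. The level in ethanol 1 was 0.154 CPM with an exact Poisson interval of 0.0186 to 0.556 CPM, and that in ethanol 2 was 0.941 CPM (0.567 to 1.47 CPM). FOSL1, or FRA1, a subunit prominent in mesenchymal and invasive cells, had 14 reads in each ATRA library and 27 and 18 reads in the ethanol libraries, which is 0.948 and 0.838 CPM against 2.08 and 0.892 CPM. The log2 fold change was 0.24 ± 0.98 for FOSB and -0.71 ± 0.69 for FOSL1 (edgeR quasi-likelihood adjusted p 0.953 and 0.720). For FOSL1 the level in ethanol 2 lay between the ATRA libraries. No difference was called for either gene at these low counts, and the 2 ethanol intervals of FOSB did not overlap.

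EGR1, a zinc finger factor induced by ERK through serum response factor, had 29.9 and 18.8 CPM in ATRA 1 and 2 and 15.6 and 11.8 CPM in ethanol 1 and 2. Both ATRA libraries were above both ethanol libraries, and within each treatment the library numbered 1 was the higher. The fitted log2 fold change was 0.83 ± 0.36, with a 95% interval of -0.04 to 1.69 (edgeR quasi-likelihood adjusted p 0.337), and it was 0.93 and 0.66 within numbers. EGR1 has the 2 CArG boxes and the 2 TGACGT matches printed above.

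ATF3, a stress-induced factor that pairs with Jun proteins and acts downstream of ATF4, had 11.9 and 11.2 CPM in ATRA 1 and 2 and 9.16 and 13.8 CPM in ethanol 1 and 2. Both ATRA libraries lay between the ethanol libraries. The log2 fold change was 0.01 ± 0.36 with a 95% interval of -0.87 to 0.89 (edgeR quasi-likelihood adjusted p 0.996), and its sign turned with the scaling.

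IER3, an immediate early gene that modulates ERK signalling and cell survival, had 20.7 and 21.7 CPM in ATRA 1 and 2 (305 and 362 reads) and 1.69 and 3.91 CPM in ethanol 1 and 2 (22 and 79 reads). The ATRA libraries were nearly equal, and each was more than the sum of the ethanol libraries. The fitted fold was 7.44, with a 95% interval of 3.27 to 16.9 that is not adjusted for the number of genes. On the log2 scale this was 2.89 ± 0.49, with 3.52 and 2.43 within numbers, an unadjusted p of 0.000985 and an adjusted p of 0.0682 (edgeR quasi-likelihood). It ranked 273 by p among 18900 genes, and the largest unadjusted p among the called genes was 0.000344. The call depended on the analysis: of 15 alternatives 9 called it, with log2 fold changes between 2.39 and 3.65 over all 15. Each fit without 1 library called it, as did DESeq2, with adjusted p 6.42e-06, and those analyses called between 870 and 1442 genes in all, where the fit described here called 132. In a fit without 1 library the spread comes from the other group alone, and the lone library is assumed to vary like it. IER3 overlaps 359 exon bases of IER3-AS1 on the opposite strand in GENCODE 29, so its reads too are uncertain without the strand setting.

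**Figure D3:**
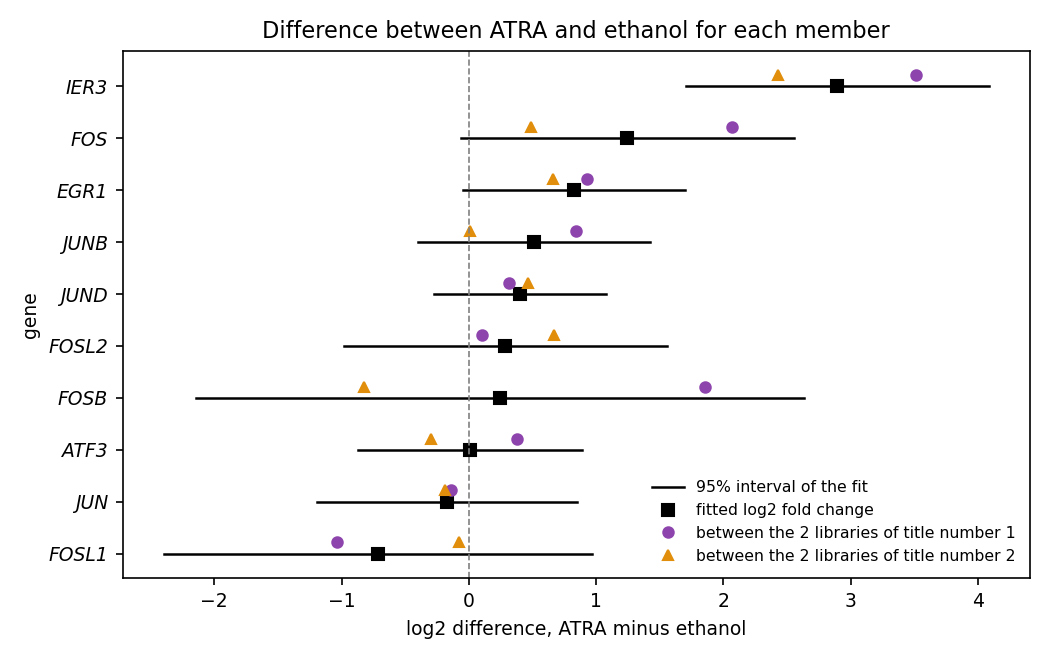
Log2 difference between ATRA and ethanol for each gene; squares and lines are the edgeR fit with its unadjusted 95% interval, circles and triangles the difference between the libraries numbered 1 and between those numbered 2. Only the interval of IER3 lies clear of 0, from 1.71 to 4.08, and FOSB and ATF3 point in opposite directions within the numbers.

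**Figure D4:**
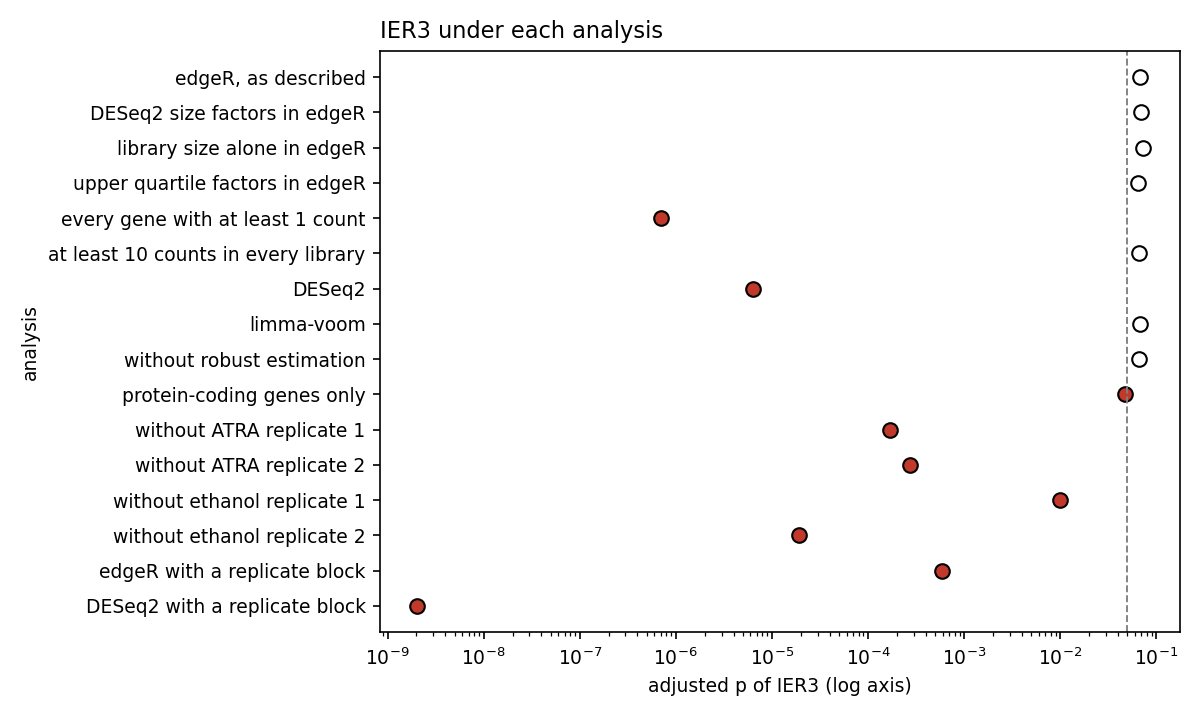
Adjusted p of IER3 (log axis) in the edgeR fit described here and in 15 alternatives; filled points are below the dashed line at 0.05. The 6 alternatives that did not call it lie between 0.0643 and 0.0738, and 9 lie below 0.05.

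Patterns over the 4 libraries were compared on centred log2 CPM over 10338 genes with a mean log2 CPM of at least 3, as a description only. The genes nearest to FOS were PPARD, TGFB1I1, FAM129B, SDC4 and BDH2, at distances of 0.13 to 0.28. Those nearest to JUN, over 10337 genes, were PTGES3, RBBP4, PCYOX1, ZNF605 and TBC1D5, at 0.03 to 0.07. With 4 points per gene many genes share such a pattern.

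The kinases and factors that switch immediate early genes on came next. Of 26 upstream factors and kinases, all tested, 0 were called by edgeR (background 0.545% higher and 0.153% lower). In that test 3 had an unadjusted p under 0.05 (all higher), while DESeq2 called 1 higher and limma-voom 0. These counts lie near the background of 9.43% higher at that p and of 4.03% called higher by DESeq2. Their median log2 fold change was 0.19. MAPK10, the neuronal JNK3, had 34.7 and 43.0 CPM with ATRA and 11.8 and 16.4 CPM with ethanol (log2 1.46 ± 0.31, edgeR quasi-likelihood adjusted p 0.0981). CREM, a cyclic AMP response factor, was at 1.13 ± 0.31 (adjusted p 0.159). Serum response factor itself, SRF, named after its values were seen, was at -0.19 ± 0.25.

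Of 41 other immediate early genes and EGR regulators, 37 were tested. The edgeR quasi-likelihood test called 1 higher and 0 lower (background 0.545% and 0.153%). Reads with ATRA alone can carry a gene past the low count filter. Counts and median here therefore cover the tested genes and not the list. DUSP6, the phosphatase that removes activating phosphate from ERK and is itself induced by ERK signalling, had 401 and 396 CPM with ATRA and 7.47 and 18.9 CPM with ethanol. This was a log2 fold change of 4.91 ± 0.51 (edgeR quasi-likelihood adjusted p 0.0367), and all 15 alternatives called it. At an unadjusted p under 0.05, 10 were higher and 0 lower (background 9.43% and 6.49%), DESeq2 called 6 of 37 higher (background 4.03%) and limma-voom 1. The median was 0.26, and 18 of 37 had both ATRA libraries above both ethanol libraries and 5 of 37 below, where all tested genes gave 23.8% and 21.7%.

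Several relatives of the members in that list were chosen for mention after their values were seen. EGR3, a relative of EGR1, had 48 and 44 reads with ATRA and 1 and 6 with ethanol (log2 3.83 ± 0.78, edgeR quasi-likelihood adjusted p 0.0922). NAB2, a corepressor of EGR proteins, had 71.4 and 46.6 CPM against 27.1 and 28.1 CPM (log2 1.10 ± 0.30, adjusted p 0.153). HBEGF, an EGF receptor ligand, was at 22.4 and 29.6 CPM against 4.70 and 3.12 CPM (log2 2.74 ± 0.38, adjusted p 0.0507). IER2, another short-lived early gene, was at 63.5 and 41.6 CPM against 36.7 and 33.3 CPM, and DUSP1, an early phosphatase of JNK and p38, at 23.0 and 20.5 CPM against 14.5 and 19.9 CPM. None of these passed the edgeR test over all genes, while DESeq2 called HBEGF (adjusted p 5.15e-07) and EGR3 (adjusted p 0.00515).

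Other leucine zipper partners of AP-1 and the Maf and Bach relatives numbered 20, of which 15 were tested. A high level with ATRA alone is enough to pass the filter. The counts and median below therefore describe the tested genes and not the list. Here 0 were called by edgeR (background 0.545% higher and 0.153% lower). In that test 4 were higher and 1 lower at an unadjusted p under 0.05 (background 9.43% and 6.49%). DESeq2 called 4 of the 16 it tested higher (background 4.03%) and limma-voom 0, and the median was 0.52. CREB5, a relative of ATF2, had 41.8 and 54.1 CPM with ATRA and 5.31 and 14.8 CPM with ethanol (log2 2.24 ± 0.51, edgeR quasi-likelihood adjusted p 0.113). MAFF, a small Maf protein without an activation domain and also in the list of early genes, had 12.6 and 12.1 CPM against 3.46 and 4.31 CPM (log2 1.66 ± 0.38, adjusted p 0.114). BACH2, a repressor that pairs with small Maf proteins, was named after its values were seen and had 221 and 89 reads with ATRA against 2 and 8 with ethanol (adjusted p 0.0628). JDP2, a repressor that pairs with Jun proteins, a choice likewise made with its values known, was the lowest of the list at -1.42 ± 0.46, with 5.62 and 4.25 CPM against 9.08 and 17.2 CPM.

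The ATF4 branch, which induces ATF3 under amino acid or unfolded protein stress, had 10 members tested and 0 called by edgeR, DESeq2 or limma-voom. Among all tested genes edgeR called 0.545% higher and 0.153% lower, and DESeq2 4.03% and 2.15%. Of the branch, 0 were higher and 3 lower at an unadjusted p under 0.05 in edgeR (background 9.43% and 6.49%). The median was -0.29. CEBPB was at -1.08 ± 0.30 and SESN2 at -1.30 ± 0.44 (edgeR quasi-likelihood adjusted p 0.157 and 0.232). ATF4, chosen with its values in view, had 315 and 384 CPM with ATRA and 324 and 544 CPM with ethanol, and like ATF3 it was highest in ethanol 2.

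Genes known elsewhere as AP-1 targets were the list with the highest median. Of 28 listed, 27 were in the table and 18 were tested, and their median log2 fold change was 2.18 against 0.34 for the 10 members. The 18 passed a filter that a high level with ATRA alone can satisfy. This median and the counts below therefore describe the tested genes and not the list. The list was also chosen with earlier results of these data known, so its contrast with the members is a description only. VIM, the mesenchymal filament vimentin, rose from 31.5 and 27.0 CPM with ethanol to 265 and 159 CPM with ATRA (log2 2.86 ± 0.34, edgeR quasi-likelihood adjusted p 0.0410), and all 15 alternatives called it. It was the single gene of the list that edgeR called (background 0.545% higher and 0.153% lower). In that test 12 were higher and 0 lower at an unadjusted p under 0.05 (background 9.43% and 6.49%). DESeq2 called 8 of 20 higher (background 4.03%) and limma-voom 1. Many of these genes have other regulators too, and whether AP-1 took part was not tested.

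Individual targets, named after their values were seen, differed in size. PLAUR, the urokinase receptor, had 15.1 and 7.48 CPM with ATRA and 0.231 and 1.93 CPM with ethanol (edgeR quasi-likelihood adjusted p 0.163). CCND1, cyclin D1, was at 1026 and 893 CPM against 741 and 857 CPM, and CD44 at 28.9 and 26.6 CPM against 11.6 and 46.4 CPM. The collagenase MMP1 had 1 and 4 reads with ATRA and 0 in both ethanol libraries, and IL6 and MMP13 had 0 reads in every library. Thus these 3 genes were at or near the floor of 3 reads, which lies between 0.149 and 0.231 CPM per library. Of the 9 tested markers of other cell types, 4 were higher in both ATRA libraries (CD14, KRT8, PDGFRA and ACTA2). In both ATRA libraries 2 were lower (LUM and MYH11), and 3 overlapped. Among all tested genes 23.8% were higher in both and 21.7% lower in both. For these 9 markers edgeR called 0 (background 0.545% higher and 0.153% lower). The smooth muscle markers differed in direction, with ACTA2 at 51.2 and 11.6 CPM against 1.85 and 3.47 CPM and MYH11 at 2.30 and 1.73 CPM against 4.39 and 2.82 CPM. The monocyte marker CD14 had 19.0 and 6.76 CPM against 2.69 and 1.64 CPM, while CD68 was at 0 throughout.

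**Figure D5:**
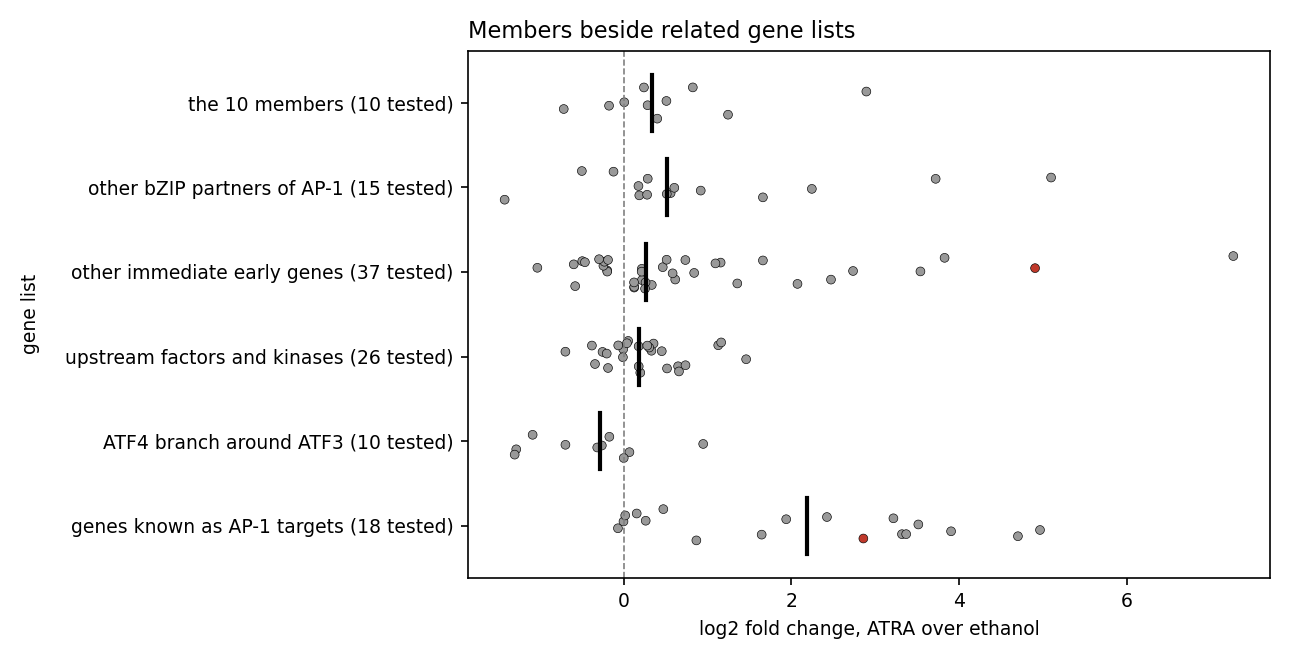
Log2 fold change of every tested gene in the 10 members and in 5 related lists; grey points were not called, red points were called, black bars are list medians and the dashed line is the median of all genes tested. The members centre at 0.34 and the AP-1 targets at 2.18, with DUSP6 and VIM as the red points. The lists were chosen with earlier results of these data known and cover tested genes only, so the medians are descriptive. The point furthest right is CTGF (picked out from the plot), which had 0 and 1 reads with ethanol. Its fitted value thus rests on almost no ethanol reads.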

How the data were processed

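Total RNA from 4 libraries of SK-N-BE(2)C cells was depleted of ribosomal RNA and sequenced with a directional kit, per the labels' protocols. The authors deposited raw read counts per gene symbol. STAR 2.5.2b, featureCounts 1.5.1 and hg19 are named, per the submitters' processing notes; neither annotation nor strand setting was given in the sources used here.

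Counts were tested with edgeR 4.0.16 in R 4.3.3 (filterByExpr, minimum count 10, TMM, robust quasi-likelihood F test, treatment as the sole term, 2 residual degrees of freedom). The fit also draws on the spread of other genes, so the member intervals rest on 6.02 to 6.07 total degrees of freedom. P-values were two-sided, Benjamini-Hochberg adjusted over 18900 genes, with a threshold of 0.05. The standard error is the size of the log2 fold change over the square root of F. Within-number differences use log2 CPM with a prior count of 2. Exon lengths, exon overlaps and the gene types of the protein-coding fit came from GENCODE 29 (GRCh38), used for these and for names only. Promoters came from RefSeq GRCh38.p14. Alternatives covered scaling, filters, DESeq2 1.42.0, limma-voom 3.58.1, each library left out and the title number as a block. The procedure was tested on simulated data. The members and lists were chosen with earlier results of these data known. All members are named; from each other list up to 2 genes called in each direction with the largest change, or the 2 with the smallest p, among genes whose mean log2 CPM reached 1, and others are said to be chosen after their values were seen. CXCL8 and PECAM1 had no match and were not analysed here. The smallest two-sided exact permutation p for 2 against 2 libraries is 0.333, so no such test was used. A result on 1 listed gene is not reported here.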

Additional observations from a re-analysis of the deposited data

How the results depend on the processing

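With 2 libraries a group, the number of calls depends on the analysis. edgeR quasi-likelihood called 132 genes, which became 1821 when genes needed only 1 count, 84 with at least 10 counts in every library, 1260 with DESeq2, 50 with limma-voom, 274 with protein-coding genes only, and 870 to 1442 without 1 library, where the spread comes from the other group alone. Members called higher, 0 in the fit described, were 1 (IER3) when genes needed only 1 count and with DESeq2, protein-coding genes only and each of the 4 fits without a library (1 to 1); 0 members were called lower in any of the 15 alternatives. The title number is not said to pair the libraries, although deviations of same-numbered libraries correlated at 0.632 across genes. With it as a replicate block, edgeR called 4098 genes (21.7% of those tested) and 2 members, EGR1 (log2 0.80, adjusted p 0.0233) and IER3 (adjusted p 0.000588), and DESeq2 called 2659 genes and 1 member, IER3, with EGR1 at an adjusted p of 0.0997.

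Directions of small differences turned. FOSB was at -0.27 without ATRA 1 and -0.52 without ethanol 1 (range -0.52 to 2.09), FOSL2 at -0.18 without ATRA 1 and -0.24 without ethanol 2 (range -0.24 to 1.10), JUN at 0.17 without ATRA 1 and 0.36 without ethanol 2 (range -0.67 to 0.36), and JUNB at -0.088 without ATRA 1 (range -0.088 to 0.92). ATF3 was at -0.013 with DESeq2 size factors, -0.038 with library size alone, -0.047 when genes needed only 1 count, -0.030 with DESeq2, -0.025 with protein-coding genes only, and between -0.30 and 0.35 without 1 library. FOS, JUND, EGR1, IER3 and FOSL1 kept their sign in all 15 alternatives, and FOSB could not be fitted with at least 10 counts in every library. The FOSL1 share of the Fos family differed by -5.47 percentage points per kb of transcript, against -1.73 in reads. GATA3 was not called by limma-voom (adjusted p 0.0505). Where a call or sign changed, the cause was not tested. FOSB and FOSL1 had few reads, at most 27 per library.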
